A study of Mus musculus with 12 samples.

Results

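The 10 genes described here encode constant regions of immunoglobulins and proteins of the antibody-secreting plasma cell. They were Igha, Ighm, Ighd, Ighg1 and Ighg2b (heavy-chain constant regions), Igkc (the kappa light-chain constant region), Jchain, Mzb1, Tnfrsf17 and Prdm1. They are 10 of the 33200 genes in a table of estimated counts from iWAT, the inguinal white adipose tissue of the mouse, which lies under the skin of the groin. The set was selected on this same genotype comparison, because Igha was higher in the knockout while B cell markers were not, so the genotype values of the 10 genes are given as a description with no test. All 10 were found by symbol and all 10 passed the filter on low counts.

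The libraries came from wild-type C57BL/6 mice (WT, n = 3) and from mice lacking Nrep in the whole body after CRISPR/Cas editing (Nrep-/-, here KO, n = 3). All were 16 weeks old, on a standard maintenance diet and free of specific pathogens. The labels call the libraries of a genotype biological replicates and say nothing of the number of founder lines, littermates or pooling. Liver libraries of the same series were not analysed here.

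B cells carry IgM and IgD on their surface, made from a single heavy-chain transcript by alternative splicing. Class switching replaces the mu constant region with a gamma, epsilon or alpha one, and the cell then makes IgG, IgE or IgA. Plasma cells secrete these antibodies, and in adipose depots such as the inguinal one a lymph node embedded in the fat is a known source of B cell and plasma cell RNA. In RNA from whole tissue, fewer cells of a type and less RNA per cell cannot be told apart.

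The IgA and IgM heavy chains share a short C-terminal tail through which the J chain joins antibody units. The last 57 coding bases of their secreted forms show that shared end and are printed with the codon of the cysteine next to last before the stop in capitals (GENCODE M21, GRCm38, minus strand, 5′ to 3′). Igha lies at chr12:113258768-113258824 in exon 3 and Ighm at chr12:113420867-113420923 in exon 4. The stretches were identical at 38 of 57 positions (66.7%).
Igha: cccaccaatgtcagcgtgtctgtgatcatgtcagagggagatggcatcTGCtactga
Ighm: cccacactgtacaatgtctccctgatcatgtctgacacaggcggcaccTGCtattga

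The gamma genes are close copies, so whether reads can tell them apart bears on every gamma value. The first 60 bases of their first constant exon are printed with the 22 positions that differ among the 4 genes in capitals. They lie at chr12:113330464-113330523 (Ighg1), chr12:113307874-113307933 (Ighg2b), chr12:113288873-113288932 (Ighg2c) and chr12:113361173-113361232 (Ighg3), all on the minus strand of GRCm38.
Ighg1: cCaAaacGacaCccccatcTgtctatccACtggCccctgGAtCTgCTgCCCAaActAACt
Ighg2b: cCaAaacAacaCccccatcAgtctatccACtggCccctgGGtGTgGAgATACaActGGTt
Ighg2c: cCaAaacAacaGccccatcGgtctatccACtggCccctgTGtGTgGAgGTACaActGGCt
Ighg3: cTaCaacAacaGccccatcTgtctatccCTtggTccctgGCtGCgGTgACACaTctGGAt
Ighg2b and Ighg2c were the closest pair shown, with 55 of 60 bases identical (91.7%). Over the whole transcripts, 5.26% of the 50-base words of Ighg2b also occurred in Ighg2c. No 50-base word of Igha, Ighm, Ighd, Ighg1 or Igkc occurred in another constant-region gene, and no 100-base word of any of them or of Ighg2b did.

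Library totals ran from 17970469 to 20369354 counts, and 1 count was worth 0.0466 to 0.0574 CPM, the unit of counts scaled to a common normalised (TMM) library size. Nrep, the targeted gene, had 1404, 1640 and 1300 counts in WT and 2, 2 and 5 in KO, far lower in every library labelled KO. Over 16659 tested genes, edgeR's quasi-likelihood test at an adjusted p of 0.05 called 144 genes higher in KO (0.864%) and 27 lower (0.162%). That balance depended on the libraries, with 104 higher and 230 lower without WT replicate 3. Without KO replicate 2 edgeR called 2410 higher and 1812 lower. Over the same genes DESeq2 called 1226 higher and 603 lower, and limma-voom 15 and 1. The list counts below stand beside these totals. How many of all genes had an unadjusted p under 0.05 was not counted, so list counts at that level are a description. The groups did not overlap, with every KO library above every WT library, for 15.2% of tested genes, and did so in the other direction for 13.1%. Skeletal muscle markers summed to 9.56 to 15.7 CPM in WT and to 3921, 650.4 and 3572 CPM in KO replicates 1, 2 and 3, and adipocyte markers to 10131 to 13488 CPM in WT and 14284 to 25462 CPM in KO. Of the 9 muscle markers, 8 rose by edgeR's test (Ckm, muscle creatine kinase, adjusted p = 0.0187). No muscle marker passed without WT replicate 1, WT replicate 2 or KO replicate 3, and 1 passed without KO replicate 1 and by limma-voom, although KO sums were far above WT sums in every library. Of the 9 adipocyte markers edgeR called 0 (smallest adjusted p = 0.0687), with 8 higher at an unadjusted p under 0.05. DESeq2 called 8 higher and limma-voom 0, and without KO replicate 2 edgeR called 9 higher. KO replicate 2, at 14284 CPM, had the lowest adipocyte sum of the KO libraries. These differences in marker RNA move with genotype, and their part in the values below was not tested.

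Igha, the constant region of IgA, had the largest ratio of the 10 genes. Its normalised level was 14.8, 7.65 and 7.98 CPM in WT replicates 1 to 3 and 80.8, 104.4 and 52.2 CPM in KO replicates 1 to 3. The groups did not overlap, and the lowest KO library stood well above the highest WT library. The means were 10.1 ± 4.03 CPM (SD, n = 3) in WT and 79.1 ± 26.1 CPM (SD, n = 3) in KO. The log2 fold change was 2.97 with a standard error of 0.343, or 7.82-fold. The counts behind it were 278, 164 and 167 in WT and 1409, 2119 and 940 in KO. KO replicate 2, which had the least muscle RNA of the KO libraries, had the most Igha.

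Ighg2b, the constant region of the IgG2b subclass, was the other member with every KO library above every WT library. It measured 37.5, 12.9 and 12.4 CPM in WT and 43.7, 163.4 and 54.2 CPM in KO. The gap between WT replicate 1 and KO replicate 1 was small, and KO replicate 2 exceeded the other KO libraries together. The means were 20.9 ± 14.4 and 87.1 ± 66.3 CPM (SD, n = 3 each). KO was higher by 2.06 on the log2 scale, with a standard error of 0.621. Without KO replicate 2 it was 1.29, and without WT replicate 1 it was 2.78.

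Ighm and Ighd, the constant regions carried by B cells that have not switched class, were lower in 2 of the 3 KO libraries. Ighm measured 894.9, 1295 and 677 CPM in WT and 514.6, 1112 and 372.3 CPM in KO, with means of 955.7 ± 313.5 and 666.4 ± 392.7 CPM (SD, n = 3 each). Ighd measured 450.8, 442.8 and 357.5 CPM in WT and 189.9, 441.9 and 102.8 CPM in KO, with means of 417 ± 51.7 and 244.8 ± 176.1 CPM. KO replicate 2 lay within the WT range for both genes, and replicates 1 and 3 lay below it. The log2 differences were -0.52 for Ighm and -0.77 for Ighd, and both groups overlapped. Without KO replicate 2 they were -1.05 and -1.45.

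Ighg1, the constant region of IgG1, was scarce and scattered, with 136, 322 and 26 counts in WT and 102, 76 and 59 in KO. Its WT libraries ran from 1.24 to 15.0 CPM and its KO libraries from 3.28 to 5.85 CPM, wholly inside the WT range. The log2 difference was -0.87 with a standard error of 0.720, and it was 0.02 without WT replicate 2. Ighg1 and Ighg2b, both gamma genes, had differences of opposite sign in these libraries.

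Igkc, the constant region of most mouse light chains, measured 351.1, 473.2 and 255.5 CPM in WT and 190.3, 487 and 178.5 CPM in KO. Its highest and its lowest library were both KO. The log2 difference was -0.34 with a standard error of 0.416. Kappa did not separate the genotypes as Igha did.

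Jchain, which links the units of polymeric IgA and IgM, measured 79.7, 116.6 and 43.8 CPM in WT and 90.5, 177.4 and 79.5 CPM in KO. The groups overlapped, with means of 80.0 ± 36.4 and 115.8 ± 53.6 CPM (SD, n = 3 each) and a log2 difference of 0.53. Mzb1, an endoplasmic reticulum chaperone that helps antibody assembly, measured 18.9, 22.5 and 14.9 CPM in WT and 10.8, 27.5 and 8.23 CPM in KO. As for Ighm and Ighd, KO replicates 1 and 3 lay below the WT range of Mzb1, and KO replicate 2 was the highest library of all. The log2 difference of Mzb1 was -0.27, and it was -0.92 without KO replicate 2 and 0.03 without KO replicate 3.

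Tnfrsf17 encodes BCMA, a receptor for survival signals on plasma cells, and was near the limit of detection with 6, 10 and 14 counts in WT and 10, 17 and 12 in KO. The overlapping groups differed by 0.51 on the log2 scale with a standard error of 0.409. Prdm1 encodes BLIMP1, a transcription factor needed for plasma cell differentiation that other cells also make. It measured 5.64, 7.37 and 6.83 CPM in WT and 3.67, 4.53 and 2.50 CPM in KO, and was the only member with every KO library below every WT library. Its means were 6.61 ± 0.886 and 3.57 ± 1.02 CPM (SD, n = 3 each), a log2 difference of -0.89 with a standard error of 0.263.

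**Figure D1:**
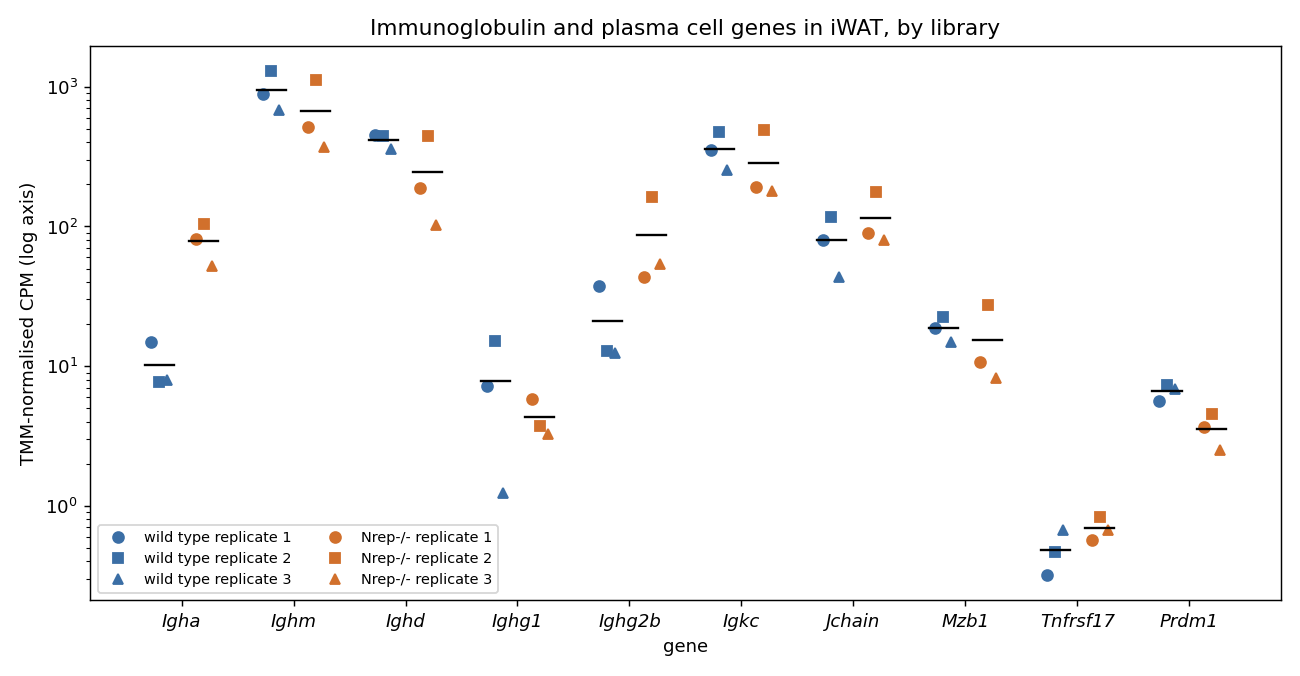
CPM (log axis) of each of the 10 genes in the 6 libraries, 1 point per library, with the group mean. Igha and Ighg2b have every KO library above every WT library, Prdm1 has every KO library below, and the other 7 genes overlap.

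The 10 genes differed in direction. Of the 10, 4 had a positive and 6 a negative log2 difference, with a median of -0.30, beside a median of -0.06 over all tested genes. Every KO library was above every WT library for 2 members and below for 1, against 15.2% and 13.1% of all tested genes, and since the members were selected on these values nothing is read from that. KO replicate 2 was the highest KO library for 9 of the 10 genes and the highest of all 6 libraries for 6. KO replicate 3 was the lowest KO library for 8 and the lowest of all for 5.

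**Figure D2:**
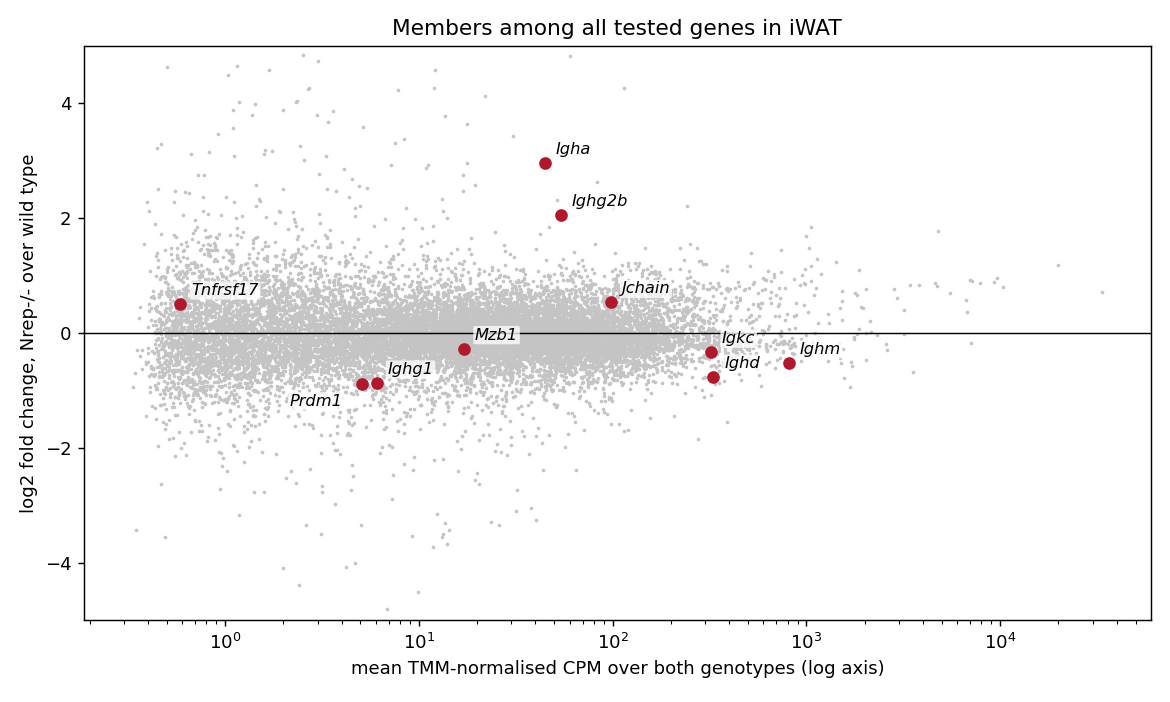
Log2 fold change, KO over WT, against mean CPM (log axis) for all tested genes in grey, with the 10 members labelled; 55 genes beyond ±5 on the log2 axis are not shown. Igha at 2.97 and Ighg2b at 2.06 lie above the bulk of genes and the other 8 members lie between -0.89 and 0.53.

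Per kilobase of transcript, which allows genes to be compared, the order of mean levels in WT was Igkc (676.5 CPM per kb), Ighm, Ighd, Jchain (57.5), Mzb1, Ighg2b (18.8), Igha (9.22), Ighg1, Prdm1 (1.25) and Tnfrsf17. In KO it was Igkc (536.2 CPM per kb), Ighm, Ighd, Jchain (83.1), Ighg2b (78.2), Igha (71.95), Mzb1 (17.1), Ighg1, Tnfrsf17 and Prdm1. Igha thus stood below Mzb1 in WT and above it in KO, where the libraries of these neighbours did not overlap. Ighd and Jchain also did not overlap in either group. In WT the same held for Jchain against Mzb1 and for Prdm1 against Tnfrsf17, and in KO for Mzb1 against Ighg1 and for Ighg1 against Tnfrsf17. All other neighbours in either order overlapped.

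In the heavy-chain pool, KO libraries held a smaller share of mu and delta and a larger share of alpha and gamma. Igha held 1.01% (95% Clopper-Pearson interval 0.899 to 1.14), 0.414% (0.353 to 0.482) and 0.739% (0.631 to 0.859) of all heavy-chain constant counts in WT, and 9.23% (8.77 to 9.70), 5.37% (5.15 to 5.60) and 7.53% (7.08 to 8.01) in KO. The intervals cover counting error only. The means were 0.722 ± 0.301% and 7.38 ± 1.93% (SD, n = 3 each), and with counts divided by transcript length 0.764 ± 0.304% and 7.99 ± 2.12%. Every KO library was above every WT library in this share, KO replicate 2 included. The share is built from values that chose the set, so it carries no test.

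The gamma genes together held 6.68%, 5.59% and 3.48% of heavy-chain constant counts in WT and 10.35%, 14.7% and 23.9% in KO. The unscaled gamma counts were 1830, 2214 and 786 in WT and 1580, 5788 and 2984 in KO, and these overlapped between the groups. A share can rise where the other counts in the pool fall, so the shares do not give the level of gamma RNA. Ighg2b had a mean share of 1.47 ± 0.979% in WT and 7.07 ± 1.83% in KO (SD, n = 3 each). Ighg3, which is not a member, had shares of 0.562%, 2.06% and 1.14% in WT and 3.21%, 5.52% and 8.58% in KO. Ighg2c did not separate the groups, with 3.05%, 2.01% and 1.07% in WT and 1.48%, 0.545% and 7.05% in KO. Mu and delta together held 92.3%, 94.0% and 95.8% in WT and 80.4%, 79.9% and 68.5% in KO. Ighe, the epsilon constant region, had 0, 1 and 0 counts in WT and 1, 10 and 4 in KO.

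**Figure D3:**
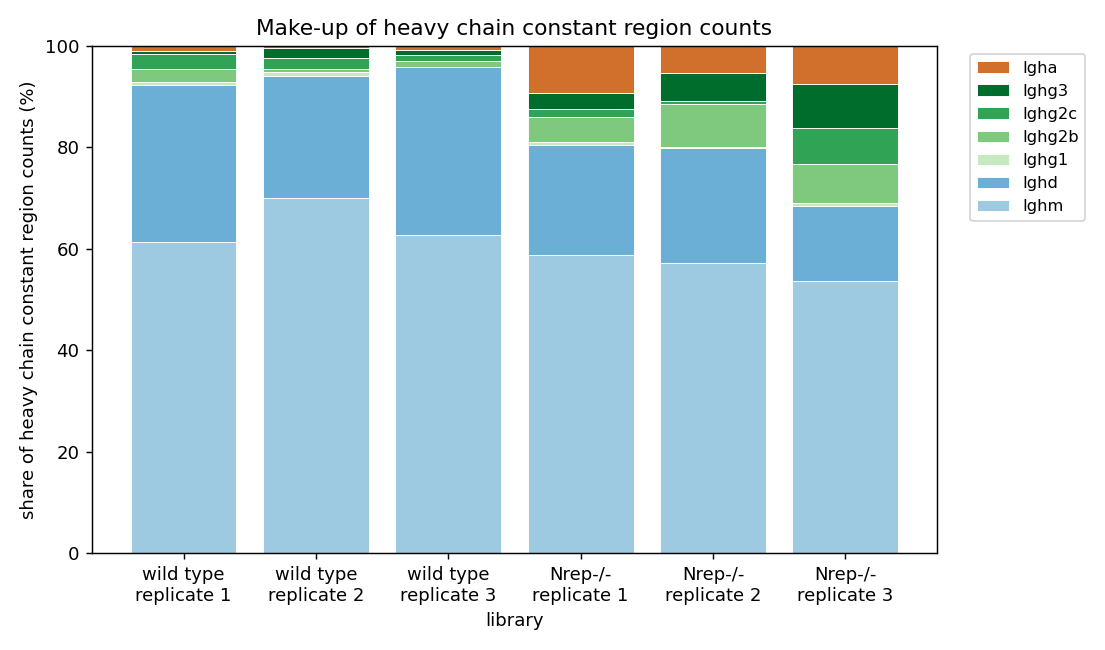
Share (%) of 7 heavy-chain constant regions (Ighe, too small to see, is left out) in all heavy-chain constant counts, 1 stacked bar per library. Igha takes 0.414% to 1.01% of the WT bars and 5.37% to 9.23% of the KO bars.

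The mean kappa share of light chains was close in the genotypes. Igkc held 74.1%, 79.7% and 68.3% of light-chain constant counts in WT and 67.5%, 75.0% and 79.7% in KO, with means of 74.0 ± 5.72% and 74.1 ± 6.17%. Within the lambda part, Iglc1 held 1.90%, 2.23% and 2.83% of light-chain counts in WT and 7.18%, 2.98% and 5.41% in KO. Its level differed by 0.65 on the log2 scale, which did not pass edgeR's test (adjusted p = 0.157).

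B cell markers were on average lower in KO, but with a wide spread. The 17 markers, among them Cd79a, part of the B cell receptor, and Cd22, a co-receptor, summed to 1908, 1872 and 1710 CPM in WT and 893.4, 1935 and 451 CPM in KO. None of the 17 passed edgeR's test, none had an unadjusted p under 0.05, and DESeq2 and limma-voom called 0 as well, although all 17 log2 differences were negative. This list entered the choice of the set, so its count is a description. Without KO replicate 2, edgeR called all 17 lower, in a fit that called 1812 of all genes lower and 2410 higher. Leaving out any other library gave 0 calls in this list. T cell markers summed to 788.5 to 953.8 CPM in WT and 585.1, 1155 and 363.5 CPM in KO. Lymph node stroma and high endothelium markers, such as Ccl21a and Glycam1, summed to 578.1 to 729.1 CPM in WT and 436.5, 819.2 and 304 CPM in KO. In all 3 lists KO replicate 2 was the highest of the 6 libraries and KO replicate 3 the lowest. By edgeR 0 of 14 T cell and 0 of 6 stroma markers passed, with 0 and 2 lower at an unadjusted p under 0.05, 0 and 1 lower by DESeq2 and 0 by limma-voom, and without KO replicate 2 edgeR called 13 and 4 lower. How much node tissue entered each library was not tested.

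The ratio to the B cell markers uses the values that chose the set, so it too is a description. Ighd per summed B cell marker CPM was nearly constant, at 0.236, 0.237 and 0.209 in WT and 0.213, 0.228 and 0.228 in KO. Igha per summed B cell marker CPM was 0.00775, 0.00409 and 0.00467 in WT and 0.0905, 0.0539 and 0.116 in KO, a ratio of means of 15.8, which restates the choice of the set. The ratios of Igha, Ighg2b, Jchain, Mzb1 and Tnfrsf17 did not overlap between groups and were higher in KO, and those of the other 5 members overlapped. Over all tested genes this ratio was higher in KO without overlap for 18.2% and lower for 0.288%, and the marker sum itself was low in KO replicates 1 and 3. The gap was narrow for Mzb1, whose highest WT ratio was 0.0120 and whose lowest KO ratio was 0.0121. Per Jchain CPM, Igha was 0.186, 0.0656 and 0.182 in WT and 0.893, 0.588 and 0.657 in KO.

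**Figure D4:**
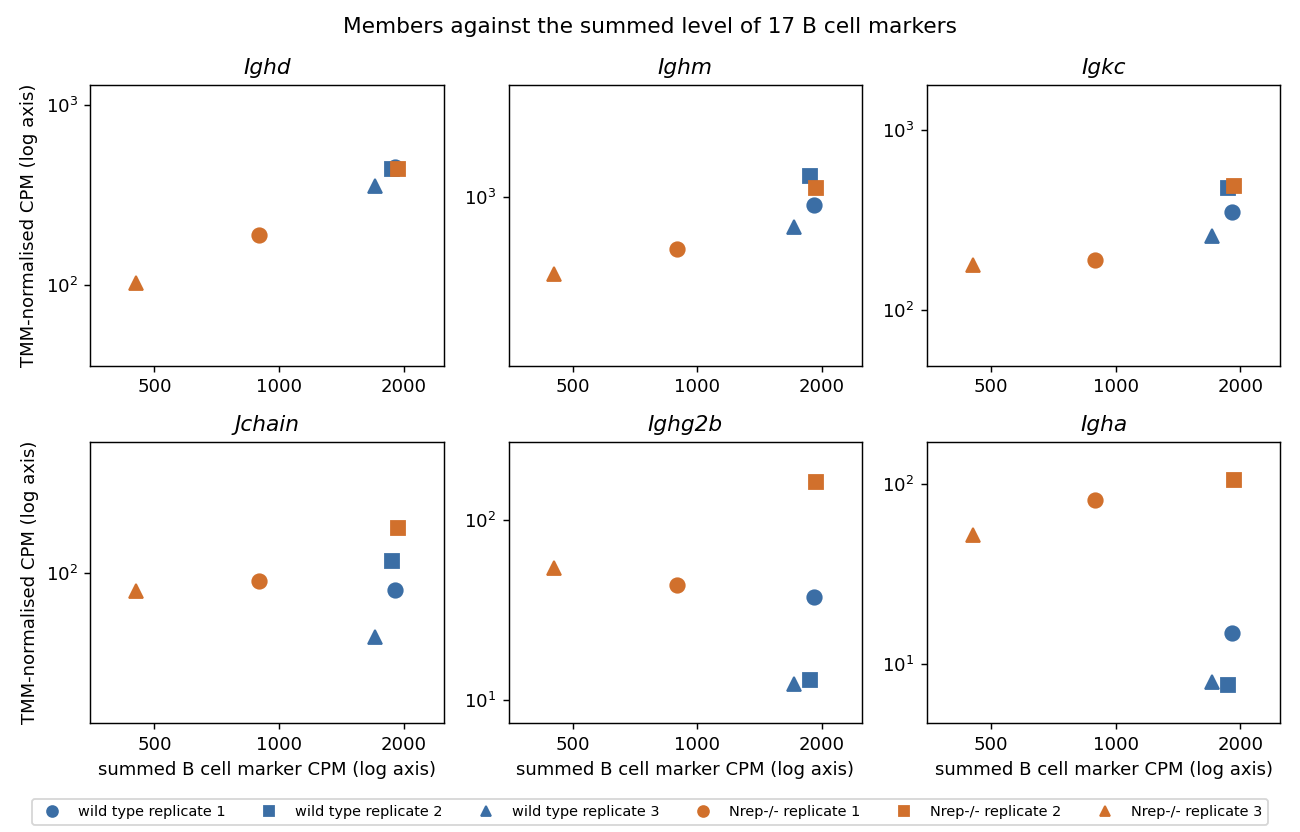
CPM of 6 members (Ighd, Ighm, Igkc, Jchain, Ighg2b and Igha) against the summed CPM of 17 B cell markers, 1 point per library, both axes logarithmic. Ighd follows the marker sum in all 6 libraries, while Igha is at 52.2 CPM or more in every KO library although the sum there runs from 451 to 1935 CPM.

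Other genes of the antibody pathway, which did not choose the set, gave no call in the main edgeR fit. Other edgeR fits with all 6 libraries called a few. With a replicate block 1 constant region was called higher, and 3 plasma cell regulators, 1 homing receptor and 2 Fc receptors lower. With no filter on low counts 3 regulators, 1 factor for IgA switching and 2 Fc receptors were called lower. With library totals alone 1 Fc receptor was called lower. Over all genes these fits called 791 higher and 435 lower, 921 and 439, and 129 and 49. Among 5 tested constant regions outside the set edgeR called 0, with 2 higher at an unadjusted p under 0.05, and DESeq2 and limma-voom called 0, while edgeR without KO replicate 2 called 2 lower. Ighg3 measured 8.19, 38.1 and 12.3 CPM in WT and 28.1, 107.3 and 59.5 CPM in KO, a log2 difference of 1.73 with overlapping groups (edgeR adjusted p = 0.173). Iglc2, a lambda constant region, differed by -0.36 (adjusted p = 0.635).

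The 16 plasma cell regulators and secretory factors had 0 calls by edgeR, with 1 higher and 4 lower at an unadjusted p under 0.05, while DESeq2 called 2 lower and limma-voom 0. Their median log2 difference was -0.39 and 14 of 16 were negative. Xbp1, the transcription factor of the secretory programme, was at 271.1 ± 19.5 CPM in WT and 251.2 ± 50.3 CPM in KO (edgeR adjusted p = 0.723). Txndc5, an endoplasmic reticulum disulfide isomerase, differed by -0.22 (adjusted p = 0.437). Irf4, which drives plasma cell differentiation and is also made in adipocytes and macrophages, came nearest the threshold at -0.86 (adjusted p = 0.0635). Without KO replicate 2, 1 of the 16 was called higher and 8 lower.

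Of 11 factors for IgA switching and plasma cell survival, 7 could be tested and edgeR called 0, with 1 lower at an unadjusted p under 0.05, 1 lower by DESeq2 and 0 by limma-voom. Cxcl12, a chemokine that retains plasma cells, differed by -0.05 (edgeR adjusted p = 0.849), and Tgfb1, a signal for switching to IgA, by -0.52 (adjusted p = 0.232). Il10, a cytokine that acts on B cells and plasma cells, had the smallest adjusted p, with a log2 difference of -1.95 (edgeR adjusted p = 0.063). Without KO replicate 2, edgeR called 2 of the 7 lower, and without WT replicate 3 it called 1 lower. Of 8 homing and transport receptors, 7 could be tested and edgeR called 0, with 1 lower at an unadjusted p under 0.05, 1 lower by DESeq2 and 0 by limma-voom. Cxcr4, the receptor of Cxcl12, had the smallest adjusted p among them, with a log2 difference of -1.32 (edgeR adjusted p = 0.0749), and Itga4, an integrin subunit used in homing, differed by -0.61 (adjusted p = 0.331). By edgeR, 3 of these receptors were called lower without KO replicate 2. Pigr, which carries polymeric IgA across epithelium, had 3 to 5 counts in WT and 6 to 13 in KO and was not tested. Intestinal epithelium markers, with Fabp2 and Lypd8 not in the table, summed to 1.17 to 1.62 CPM in WT and 1.26 to 3.11 CPM in KO.

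The 8 Fc receptors had 0 calls by edgeR, with 6 lower at an unadjusted p under 0.05, 4 lower by DESeq2 and 0 by limma-voom. Fcgrt, which protects IgG from breakdown, differed by 0.53 (edgeR adjusted p = 0.228), and Fcmr, the IgM receptor of B cells, by -0.67 (adjusted p = 0.450). Without WT replicate 3 edgeR called 4 lower, and without KO replicate 2 it called 1 higher and 3 lower. The smallest adjusted p was that of Fcgr1, a high-affinity IgG receptor of macrophages, at 0.0595. Fcgr1 measured 88.6, 113.2 and 15.7 CPM in WT and 7.63, 7.34 and 7.89 CPM in KO, a log2 difference of -3.25. The macrophage marker sum was also lower in KO, but by less. The 9 markers summed to 3397, 4128 and 2938 CPM in WT and to 2118 to 2320 CPM in KO. Of the 9, 8 had a negative log2 difference and 1 a positive one. By edgeR 0 passed, with 8 lower at an unadjusted p under 0.05, while DESeq2 called 4 lower and limma-voom 0. Without WT replicate 3 edgeR called 2 lower, as it did without KO replicate 2. The part of macrophage RNA in the Fc receptor values was not tested.

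Variable (V) segments give the other end of the antibody transcript and did not choose the set. Counts fell on 219 segments, of which 110 were Ighv, 106 Igkv and 3 Iglv. Thinned to a common depth of 4947 V counts, the expected number of segments seen was 181.7, 171.3 and 180.1 in WT and 164, 173.9 and 170 in KO. The means of 177.7 ± 5.58 and 169.3 ± 4.98 (SD, n = 3 each) differed by -8.37 (two-sided exact permutation test, p = 0.2, adjusted p = 0.24). The effective number of segments, the exponential of Shannon entropy, was 81.6 ± 6.96 in WT and 63.6 ± 6.01 in KO. This was a difference of -17.98 with every KO library below every WT library (exact permutation p = 0.1, adjusted p = 0.24). The effective number used all V counts of a library without thinning. These totals were 8332, 14082 and 6980 in WT and 5457, 14748 and 4947 in KO, and the part of depth was not tested. The adjustment is over 6 tests, both measures for all, Ighv and Igkv segments. For Ighv alone the difference at a common depth was -5.47 (exact permutation p = 0.2) and for Igkv alone -2.26 (exact permutation p = 0.4). Within a single locus the effective number overlapped between the groups. For Ighv alone it differed by -4.8 (exact permutation p = 0.2), with 39.6 in KO replicate 1 and 34.1 in WT replicate 2. For Igkv alone it differed by -6.7 (exact permutation p = 0.2), with 41.7 in KO replicate 1 and 40.8 in WT replicate 2. With 3 against 3 libraries, 0.1 is the smallest p this test can give.

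The 10 leading segments of a library held 34.4%, 36.6% and 30.0% of all V counts in WT and 42.5%, 40.8% and 46.3% in KO. Which segments led differed from library to library. Igkv4-59 led WT replicate 1 with 4.23% of V counts, Igkv19-93 led replicate 2 with 8.59% and Iglv1 led replicate 3 with 6.05%. In KO, Iglv1 led replicate 1 with 16.8% and replicate 3 with 9.36%, and Ighv7-4 led replicate 2 with 7.14%. Ighv7-4 had 41, 43 and 29 counts in WT and 74, 1053 and 361 in KO. As a share of Ighv counts Ighv7-4 was 1.52%, 0.913% and 1.34% in WT and 4.39%, 19.8% and 21.5% in KO, so the groups did not overlap, but its log2 difference of 3.78 missed edgeR's threshold (adjusted p = 0.0637). No 50-base word of Ighv7-4 occurred in another V segment of the annotation. Iglv2 had 59, 53 and 42 counts in WT and 212, 226 and 80 in KO, a log2 difference of 1.87 (edgeR adjusted p = 0.0624), and 21.1% of its 50-base words also occurred in Iglv1.

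The V segments as a whole gave 0 calls in the main edgeR fit among 51 Ighv, 64 Igkv and 3 Iglv tested. At an unadjusted p under 0.05 there were 4 Ighv higher and 7 lower, 3 Igkv higher and 9 lower, and 2 Iglv higher. DESeq2 called 2 Ighv higher and 2 lower, 3 Igkv lower and 2 Iglv higher, and limma-voom called 0. Leaving out KO replicate 2, edgeR called 2 Ighv higher and 12 lower, 14 Igkv lower and 1 Iglv higher. Igkv19-93 had 307, 1209 and 159 counts in WT and 48, 207 and 38 in KO (log2 difference -2.40, edgeR adjusted p = 0.151). As a share of Igkv counts Igkv19-93 was 5.88%, 13.98% and 3.68% in WT and 1.83%, 2.51% and 1.40% in KO. By this share every WT library was above every KO library, with WT replicate 2 the highest. In CPM the groups overlapped, with 7.6 in WT replicate 3 and 10.2 in KO replicate 2. By CPM, 3 of 51 tested Ighv were higher in KO without overlap and 5 lower, and 0 and 7 of 64 Igkv. Over all tested genes 15.2% were higher without overlap and 13.1% lower, so nothing is read from these counts. How many segments separated by share was not counted.

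**Figure D5:**
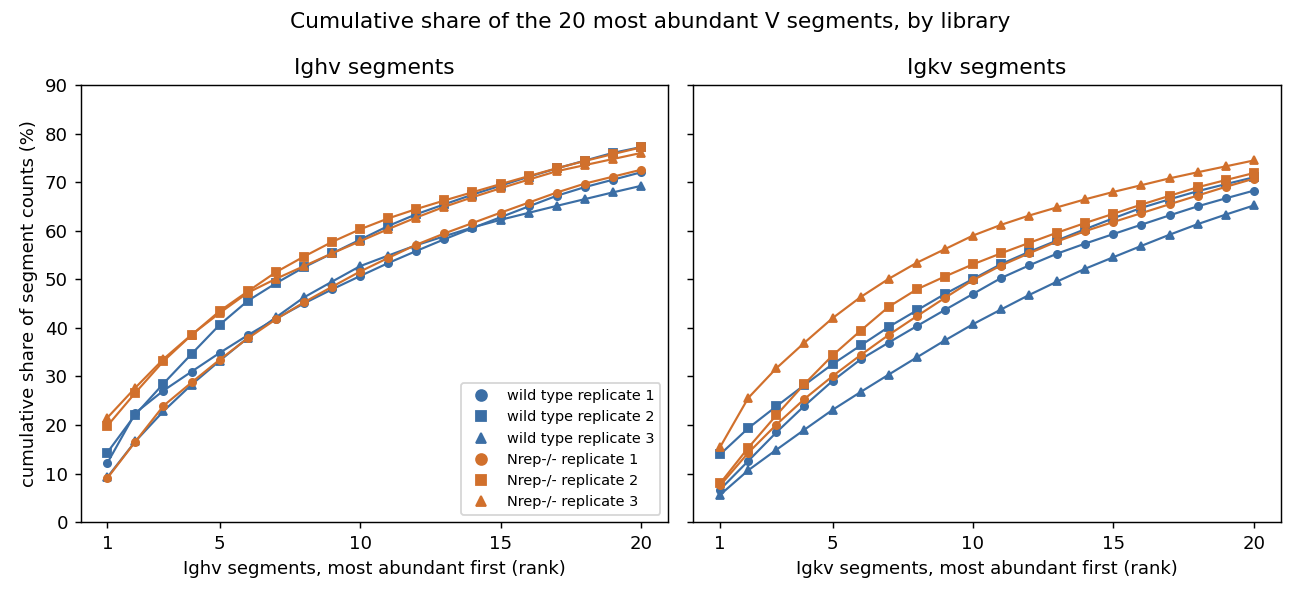
Cumulative share (%) of the counts of a locus held by its 20 most abundant segments in each library, against the rank of the segment, for Ighv and Igkv. The first Ighv segment, Ighv7-4, holds 19.8% and 21.5% in KO replicates 2 and 3, and at rank 10 the genotypes overlap in both loci (Ighv 50.7% to 58.2% in WT and 51.6% to 60.3% in KO).

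Outside the immunoglobulin loci, the genes whose pattern was most like that of Igha over the 6 libraries were Ociad2, Mrpl9, Usp30, Hoxa4 and Abca2, with Pearson r of 0.990, 0.978, 0.974, 0.972 and 0.971 among 14492 genes compared. The genotypes do not overlap in Igha, and these r include that difference. With each genotype's mean taken away, the most alike were Zfp692 (r = 0.994), Dnaaf5, Gm45902, Apex2 and Tnks (r = 0.981). Among the members, Ighg2b was the most like Igha by either measure, at 0.895 and 0.826. Ighd was at -0.46 over the 6 libraries and at 0.735 with the genotype means taken away. With 6 libraries and this many genes searched, values this high are a description only.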

How the data were processed

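The iWAT RNA was poly(A)-selected and sequenced from stranded libraries, per the labels' protocols. Values are the authors' deposited estimated counts per gene, unscaled. Between 9.53% and 11.1% of values per library were not whole, and all were rounded. The submitters' processing notes name fastp, featureCounts, GRCm38 and GRCm39 for the whole series. The quantifier and build of this table are not given in the sources used here, nor is how reads shared by near-identical genes were assigned. GENCODE M21 names matched 26372 of 33200 identifiers (79.4%), and those without a symbol held 0.980% to 1.39% of counts.

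The members and all gene lists were chosen with earlier results of these data known. Tests used edgeR 4.0.16 in R 4.3.3 (TMM, filterByExpr, robust quasi-likelihood F-test, Benjamini-Hochberg adjustment over 16659 genes, two-sided). The edgeR test was also run on simulated counts. These were drawn independently for each gene and lacked the marker differences seen here, so nothing is read from that run about these libraries. CPM is TMM-normalised, and errors after ± are SD over n = 3. Standard errors of log2 differences were back-calculated, as the absolute log2 difference over the square root of the F statistic of edgeR's test. For the members they are a description, and nothing is read from them as a test. P-values measure only the spread between these libraries. No 2 libraries were identical. Lengths were those of GENCODE M21 transcripts. For the number of segments, V counts were thinned analytically to the smallest V total, and for the effective number they were not thinned. Both were compared by exact permutation (scipy 1.17.1). Likeness used log2(CPM + 0.5) and a mean CPM of at least 1. Alternatives were DESeq2 1.42.0, limma-voom (limma 3.58.1), other size factors, no filter, leaving out each library and a replicate block.

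Named genes were all members, Nrep, up to 4 genes per list past the test or otherwise the 2 most abundant, the leading V segments and the 5 genes most like Igha by each measure. Ighg2c, Ighe, Iglc1, Irf4, Il10, Pigr, Fcgr1 and Iglv2 were named after their values were seen.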

Additional observations from a re-analysis of the deposited data

How the results depend on the processing

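Igha and Ighg2b were higher in KO under all 12 alternatives, Igha by 2.78 (without KO replicate 2) to 3.34 (without WT replicate 1) on the log2 scale. The set was chosen on the rise of Igha, and both genes had every KO library above every WT library. Leaving out a library could therefore not turn either sign, and nothing is read from that agreement. Of 120 member values under alternatives, 118 stayed within 1 SD of the reported value, taking each gene's own within-group SD on the log2 scale. That band was wide for scattered genes (1.17 for Ighg1 and 0.757 for Ighd), so large moves could stay inside it. Ighd, for example, went from -0.77 to -1.45 without KO replicate 2. Tnfrsf17, with an SD of 0.214, moved to 0.29 and 0.80 without WT replicates 1 and 3. The sign turned for Ighg1 without WT replicate 2 (0.02) and for Mzb1 without KO replicate 3 (0.03). The count of genes past the test, 171 in all, was 1829 by DESeq2, 16 by limma-voom, 1360 with no filter on low counts, 186 with RLE size factors and 178 with library totals, and 1 to 4222 when a library was left out (1 without WT replicate 1, 4222 without KO replicate 2). With library totals 129 of the 178 were higher (72.5%, against 84.2%), and the median of all genes shifted by -0.13. With a replicate block the count was 1226 (791 higher and 435 lower). The replicate numbers were not taken to pair the libraries: deviations of same-numbered libraries correlated at -0.01, 0.20 and 0.10, and not every library correlated best with its own number. The causes of these changes were not tested. The difference in V segments ran from -11.56 to -5.72 when a library was left out. Groups of 3 and few counts for Tnfrsf17, Ighg1 and single V segments limit the precision.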
